A study of Mus musculus with 6 samples.

Results

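The genes of the major histocompatibility complex (MHC) class II presentation pathway were compared across 3 cell fractions sorted from mouse sublingual mucosa. The 10 genes were H2-Aa, H2-Ab1, H2-Eb1, Cd74, H2-DMa, H2-DMb1, H2-DMb2, H2-Oa, H2-Ob and Ciita, and every non-control probe that carried one of these names was taken, 19 probes in all. Testing required a signal well above background in both arrays of some fraction. By that criterion 9 of the 10 genes entered the comparison of 20817 genes, and H2-Oa did not.

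MHC class II molecules are pairs of an alpha and a beta chain that carry peptides from endocytosed proteins to the cell surface, where CD4 T cells read them. New pairs are held by the invariant chain, which Cd74 encodes. Its last fragment is exchanged for peptide in endosomes with the help of H2-DM, and H2-DM is in turn restrained by H2-O. The coactivator CIITA is required for full transcription of these genes, and dendritic cells, macrophages and B cells are the cells best known for expressing them.

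Each fraction was represented by 2 arrays from independent experiments, 6 arrays in all. Fr1 held CD11c+CD206- cells. Fr2 held cells that were CD11c- and CD206- and positive for the macrophage antigen encoded by Adgre1, and Fr3 held cells positive for the same antigen and CD206hi. CD11c (encoded by Itgax) is an integrin used to gate dendritic cells, and CD206 (Mrc1) is the mannose receptor. All 3 fractions came from BALB/c mice that had received 2 paintings of the mucosa with FITC (a dye that sensitises skin on contact), and no unpainted group was analysed here. Tissue was taken from the dorsal tongue and digested for 30 min with collagenase and DNase before sorting. The number and age of the mice in each sort are not given in the sources used here.

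Sequence of the class II promoters is shown because the members are known to share a regulatory element, made of an X box bound by the RFX complex and a Y box bound by NF-Y. RefSeq promoters on GRCm38.p6, each from 250 bases before to 50 after the gene start, were at hand for 7 of the 10 genes. They were searched on both strands. The Y box core CCAAT, read here as its reverse complement ATTGG, was in a promoter of 7 of these 7 genes, against 37.4% of 32851 promoters. The X box pattern CCNAGNNAC was in 5 of the 7, against 17.3%. The longer TGATTGG, which contains ATTGG and was chosen after the sequences were seen, was in 6 of the 7, against 7.82%. CCNAGNNAC followed 25 to 45 bases later by ATTGG, counted from start to start, was in 3 of the 7, against 0.384%. Windows of 61 bases around TGATTGG are printed 5′ to 3′ along each gene's strand, with the letters of TGATTGG, and of CCNAGNNAC where it made such a pair, in capitals.
H2-Aa: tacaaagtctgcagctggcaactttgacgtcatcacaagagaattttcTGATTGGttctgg
H2-Eb1: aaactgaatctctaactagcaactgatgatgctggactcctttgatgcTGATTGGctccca
H2-DMb1: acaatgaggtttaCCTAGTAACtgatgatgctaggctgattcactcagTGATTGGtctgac
H2-DMb2: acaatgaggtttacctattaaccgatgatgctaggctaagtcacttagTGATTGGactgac
H2-Oa: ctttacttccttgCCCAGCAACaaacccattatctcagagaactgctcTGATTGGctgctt
H2-Ob: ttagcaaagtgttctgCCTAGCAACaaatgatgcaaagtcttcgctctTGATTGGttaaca
The windows lie at chr17:34287861-34287921 for H2-Aa (minus strand), chr17:34305758-34305818 for H2-Eb1, chr17:34153080-34153140 for H2-DMb1, chr17:34145109-34145169 for H2-DMb2, chr17:34092286-34092346 for H2-Oa and chr17:34238798-34238858 for H2-Ob, the last 5 on the plus strand. Relative to the gene start, TGATTGG began between −92 (H2-DMb2) and −45 (H2-Oa). A match is a run of letters and not a shown binding site. H2-Oa, whose RNA was not measured above background on any array, carried the same pair of patterns as H2-DMb1.

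The arrays held 60-base probes and were read in 1 colour, so that each value is a fluorescence level. Levels below are log2 of the processed intensity minus the array's 75th percentile, and they compare 1 probe across arrays, not 1 gene with another. Between 44.6% and 52.4% of spots were well above background, and the replicates of a fraction correlated with r between 0.796 (Fr3) and 0.898 (Fr2) across genes, and genes are not replicates of one another. The sort markers followed their gates in part: Mrc1 stood at −4.09 and −3.50 in Fr1, 0.64 and 0.33 in Fr2 and 3.78 and 2.67 in Fr3. Itgax stood at 2.71 and 2.35 in Fr1, 2.77 and 1.20 in Fr2 and 0.20 and 0.95 in Fr3, so the Fr2 arrays, gated as CD11c-negative, overlapped those of Fr1. Adgre1 was measured in Fr1 too, at 4.49 and 4.39, against 5.94 and 5.97 in Fr2 and 5.46 and 5.32 in Fr3. Both Fr2 arrays lay on a slide of their own while Fr1 and Fr3 shared the other, so that any difference of Fr2 from the rest and the slide cannot be told apart.

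Class II genes were measured well above background in all 3 fractions, the CD206-high one included, with H2-Oa as the exception. Of the 19 probes, 12 passed on all 6 arrays, 4 on some and 3 on none, and the 12 were those tested. No member was called between any of the fractions: limma gave 0 of 9 at an adjusted p under 0.05 in Fr1 against Fr3, 0 of 9 in Fr1 against Fr2 and 0 of 9 in Fr2 against Fr3. Among all genes the shares were 0.0048%, 0% and 0.0048%, so the array set as a whole made almost no call at that threshold. Without the first Fr3 array limma called 1476 genes in Fr1 against Fr3 and 987 in Fr2 against Fr3, and 0 of the 9 members in either, a fit in which Fr3 is 1 array assumed to vary like the other fractions. At an unadjusted p under 0.05 the counts were likewise 0 of 9 in each, against 8.12%, 9.79% and 8.92% of all genes. The 27 differences of the members had standard errors between 0.56 and 0.96 on the log2 scale. The intervals reported below therefore leave room for differences of several fold, and a missed threshold does not show equal expression. In such bulk fractions fewer expressing cells and less RNA per cell cannot be told apart.

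**Figure D1:**
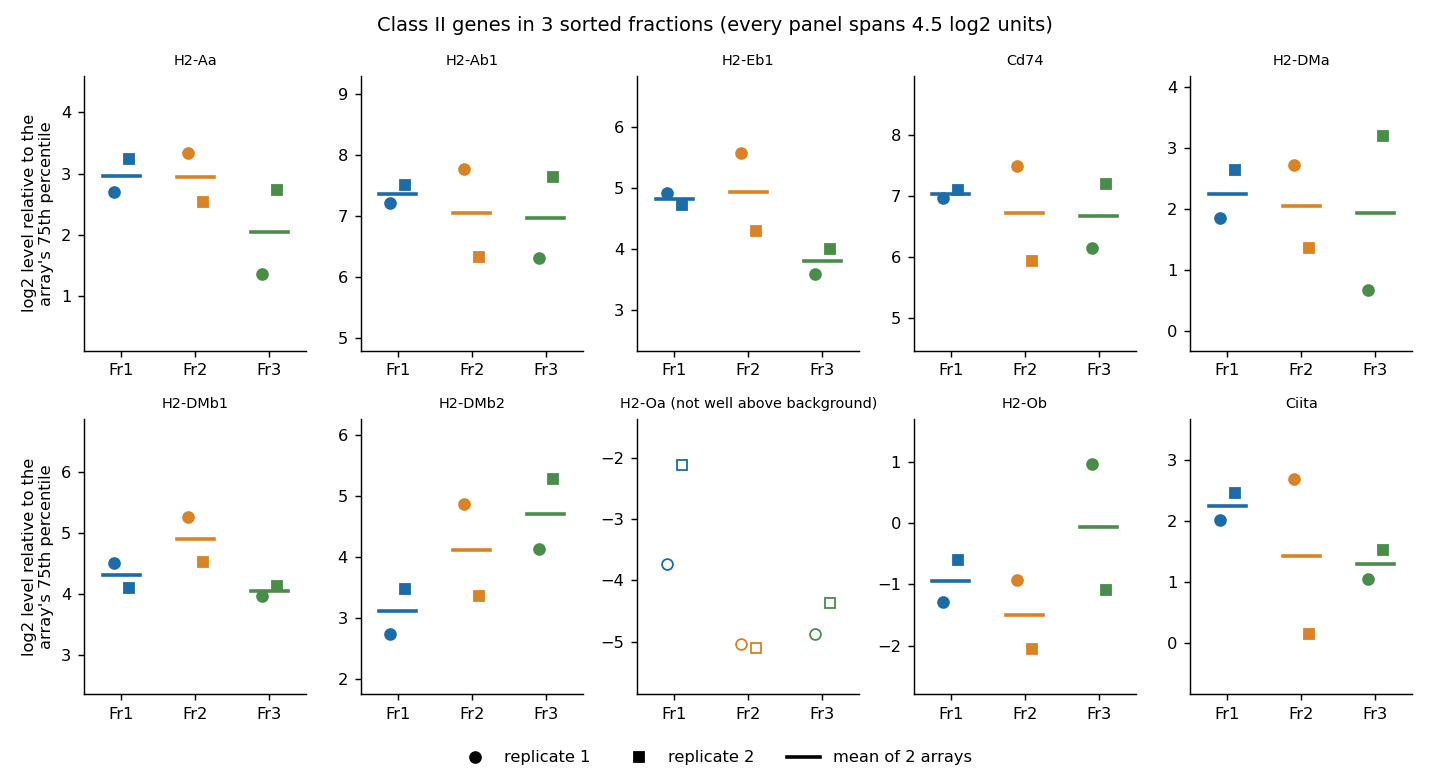
Log2 level relative to the array's 75th percentile (vertical axis) of the 10 class II genes in Fr1, Fr2 and Fr3 (horizontal axis), with 1 point per array and a line at the mean of 2 arrays. In Fr2 the circle (replicate 1) lies above the square (replicate 2) in all 9 tested genes; H2-Oa, with open points and no mean, was not well above background on any array.

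H2-Aa encodes the alpha chain of I-A, the first of the surface molecules, and its probe lies at chr17:34421285-34421344 on the files' build, mm9. Its level was 2.69 and 3.23 in Fr1, 3.34 and 2.54 in Fr2 and 1.36 and 2.72 in Fr3. The lowest value was the first Fr3 array, and every pair of fractions overlapped. The difference of Fr1 from Fr3 was 0.92 ± 0.68 (log2 difference ± SE, n = 2 each), with a 95% confidence interval from −0.71 to 2.55 and an adjusted p of 0.706 from limma. The means of Fr1 and Fr2 lay close, at 2.96 ± 0.38 in Fr1 and 2.94 ± 0.56 in Fr2 (SD, n = 2 each), and the interval of their difference ran from −1.61 to 1.66.

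H2-Ab1, the beta chain of I-A, was read by 4 probes, all well above background on every array. The brightest by mean level (chr17:34406059-34406118) stood at 7.22 and 7.51 in Fr1, 7.78 and 6.33 in Fr2 and 6.32 and 7.64 in Fr3. The Fr1 pair fell inside the span of each of the other fractions, so no order of the 3 can be read from it. Its difference was 0.39 ± 0.74 for Fr1 against Fr3 and 0.07 ± 0.74 for Fr2 against Fr3. A pair of overlapping probes (chr17:34406296-34406355 and chr17:34406305-34406363) gave 7.44 and 7.41 on the first Fr1 array, 7.62 and 7.59 on the second, 7.71 and 7.75 on the first Fr2 array and 6.50 and 6.64 on the second. On the Fr3 arrays the same pair gave 6.12 and 6.00 on the first and 7.25 and 7.15 on the second. They share 51 bases with 1 substitution, T15C, counted from 1 at the 5′ end of the windows below, where the differing base is in capitals, and their readings differed by at most 0.14 on any array.
first probe: caaataaacgagacTcagactctg
second probe: caaataaacgagacCcagactctg
The remaining probe (chr17:34404357-34404416) read 2.48 and 3.20 in Fr1, 2.05 and −0.17 in Fr2 and 0.86 and 2.69 in Fr3. There Fr1 lay above Fr2 without overlap, with a difference of 1.90 ± 0.96 and an adjusted p of 0.558 over all probes fitted one by one with limma. The brightest probe gave 0.31 for the same comparison, and the pair 0.43 and 0.30. For Fr1 against Fr3 the pair gave 0.85 and 0.92, with both Fr1 arrays above both Fr3 arrays. Fitted one by one with limma, the pair had adjusted p of 0.733 and 0.699 there. The remaining probe gave 1.06 in that comparison, with overlap.

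H2-Eb1 encodes the beta chain of I-E, and its probe lies at chr17:34453075-34453134. It stood at 4.93 and 4.73 in Fr1, 5.58 and 4.29 in Fr2 and 3.60 and 4.01 in Fr3. Both Fr3 arrays were below every array of Fr1 and of Fr2. The difference was 1.02 ± 0.63 for Fr1 against Fr3, or 2.03-fold (95% confidence interval 0.714 to 5.79, adjusted p = 0.642, limma), and 1.13 ± 0.63 for Fr2 against Fr3, or 2.19-fold (0.771 to 6.24, adjusted p = 0.609, limma). The other 2 I-E loci were H2-Ea, the alpha chain, and H2-Eb2, a second beta locus, and neither passed the test in any comparison. H2-Ea read 2.32 and 2.38 in Fr1, 2.60 and 1.04 in Fr2 and 0.56 and 1.84 in Fr3, with both Fr1 arrays above both Fr3 arrays. H2-Eb2 read 1.93 and 0.88 in Fr1, 0.87 and 1.39 in Fr2 and 0.99 and −2.63 in Fr3. Its probe is 38.3% T, as is that of H2-Eb1. Between the Fr3 arrays the median gap of all genes (first minus second) was 0.30 at probes over 30% T and −0.56 at the others, and 3 members (H2-Ab1, H2-Eb1 and Ciita) had such a probe, against 41.3% of all genes.

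Cd74, the invariant chain, was read by 1 probe at chr18:60972075-60972132. Its level was 6.97 and 7.10 in Fr1, 7.50 and 5.93 in Fr2 and 6.15 and 7.19 in Fr3. As with H2-Ab1, the close Fr1 pair sat within the span of the other fractions. Its difference was 0.37 ± 0.72 for Fr1 against Fr3 (interval −1.36 to 2.10), 0.32 ± 0.72 for Fr1 against Fr2 (−1.41 to 2.05) and 0.05 ± 0.72 for Fr2 against Fr3 (−1.68 to 1.78), with adjusted p between 0.921 and 0.984 in limma.

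The peptide exchange factor H2-DM is a pair of H2-DMa with a beta chain, for which the mouse has 2 loci, H2-DMb1 and H2-DMb2. H2-DMa, whose 60-base probe spans 564 bases of genome (chr17:34274300-34274863), read 1.86 and 2.64 in Fr1, 2.72 and 1.37 in Fr2 and 0.67 and 3.19 in Fr3. The 2 Fr3 arrays bracketed all the others, and its 3 differences were between 0.11 and 0.32, each ± 0.96. H2-DMb1 (chr17:34297109-34297168) read 4.51 and 4.11 in Fr1, 5.26 and 4.53 in Fr2 and 3.97 and 4.13 in Fr3. Both Fr2 arrays were above every array of Fr1 and Fr3, by little, with differences of −0.59 ± 0.56 for Fr1 against Fr2 (adjusted p = 0.771, limma) and 0.85 ± 0.56 for Fr2 against Fr3 (adjusted p = 0.629, limma).

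H2-DMb2 (chr17:34284764-34284823) ran the other way from most members. It read 2.74 and 3.48 in Fr1, 4.87 and 3.36 in Fr2 and 4.14 and 5.28 in Fr3. Both Fr1 arrays were below both Fr3 arrays, and Fr2 overlapped each. Fr1 against Fr3 gave −1.60 ± 0.75, or 0.331-fold (95% confidence interval 0.0951 to 1.15), with an adjusted p of 0.625 in limma. Before adjustment it had the smallest p of the 27 member differences. H2-DMb1 and H2-DMb2 are close paralogs, and whether their probes take up each other's RNA was not tested.

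The inhibitor H2-O is a pair of H2-Oa and H2-Ob. H2-Oa, read by 1 probe at chr17:34232033-34232092, was not well above background on any of the 6 arrays, and its readings were −3.74 and −2.11 in Fr1, −5.04 and −5.11 in Fr2 and −4.88 and −4.36 in Fr3. These are bounds and give no order. H2-Ob was measured by 1 of its 3 probes, which spans 369 bases of genome (chr17:34380481-34380849), at −1.29 and −0.60 in Fr1, −0.93 and −2.05 in Fr2 and 0.97 and −1.09 in Fr3. The first Fr3 array stood above the other 5, which alone made the Fr3 mean the highest, and the differences were −0.88 ± 0.84 for Fr1 against Fr3 and −1.43 ± 0.84 for Fr2 against Fr3 (adjusted p of 0.791 and 0.610, limma). Its second probe was above background on 1 array and the third on none.

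Ciita, the coactivator, was tested on 1 of 4 probes (chr16:10526458-10526517), and the other 3 were well above background on 2 or 3 of the 6 arrays. The tested probe read 2.01 and 2.46 in Fr1, 2.69 and 0.15 in Fr2 and 1.05 and 1.53 in Fr3. Both Fr1 arrays were above both Fr3 arrays, while the Fr2 arrays held the highest and the lowest value of all. Fr1 against Fr3 gave 0.95 ± 0.88, or 1.93-fold (95% confidence interval 0.449 to 8.29, adjusted p = 0.782, limma).

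**Figure D2:**
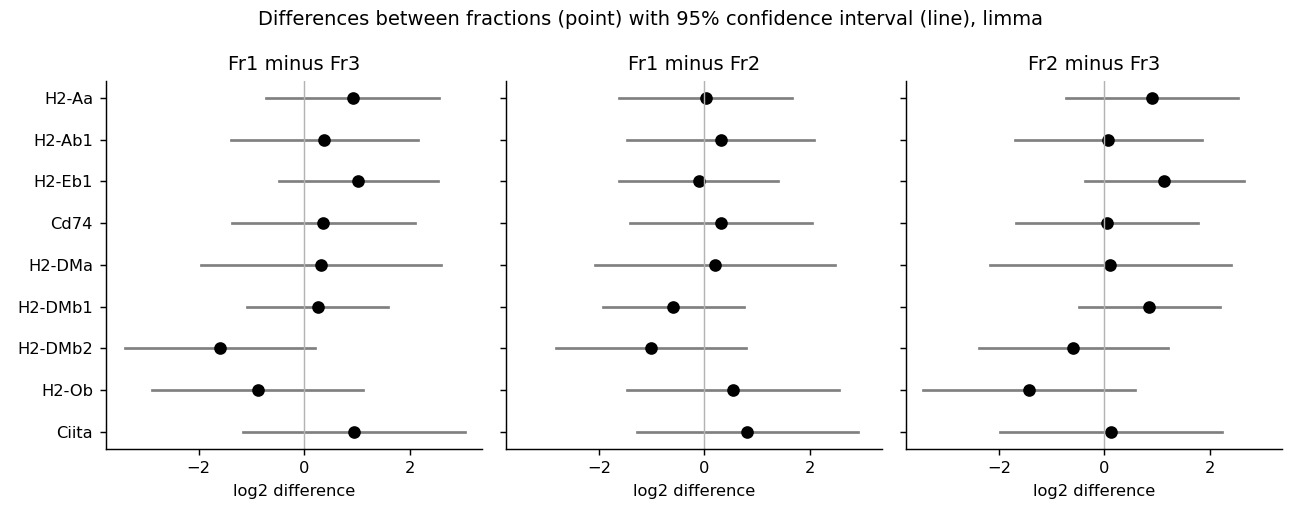
Log2 difference (horizontal axis, point) with its 95% confidence interval (line) for the 9 tested class II genes in Fr1 minus Fr3, Fr1 minus Fr2 and Fr2 minus Fr3. Every interval includes 0, and H2-DMb2 in Fr1 minus Fr3 (−1.60) lies farthest from it.

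Counted over the 9 genes, the mean of Fr1 was above that of Fr3 in 7, with a median difference of 0.37, against −0.05 over all genes. Without overlap of the arrays, 2 were higher in Fr1 (H2-Eb1 and Ciita) and 1 lower (H2-DMb2), where 13.7% and 21.9% of all genes were so. The count depends on the probe: H2-Ab1 overlapped at its brightest probe. Its probes at chr17:34406296-34406355 and chr17:34406305-34406363 had both Fr1 arrays above both Fr3 arrays. In Fr1 against Fr2 the median was 0.21, against 0.03 over all genes, with 0 members higher without overlap and 1 lower (H2-DMb1), where 22.5% and 22.3% of all genes were so. In Fr2 against Fr3 the median was 0.11, against −0.08 over all genes, with 2 higher without overlap (H2-Eb1 and H2-DMb1) and 0 lower, where 19.5% and 22.7% of all genes were so. Read against these shares, counts of 0 to 2 of 9 are not a result about the class II genes. Leaving out the first Fr3 array turned the sign of 4 of the 9 differences in Fr1 against Fr3 and of 4 in Fr2 against Fr3, and leaving out the second Fr2 array turned 6 in Fr1 against Fr2.

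Within a fraction, the 2 arrays differed in the same direction for most members. In Fr2 the first array was higher than the second in 9 of 9 members, by 0.73 to 2.55 with a median of 1.35, while 47.3% of all genes were higher on the first array and their median gap was −0.06. In Fr3 the second array was higher in 8 of 9, with a median gap of −1.04 (first minus second), where 60.3% of all genes were higher on the second and the median gap was −0.30. H2-Ob was the exception, 2.06 higher on the first. The Fr3 median of all genes pools unlike probes, at 0.30 over 30% T and −0.56 for the others. Of the 9 members, 3 had a probe over 30% T. The gap between the Fr1 arrays was smaller, from −0.78 to 0.40, with 7 of 9 higher on the second. Both directions together, higher on the first Fr2 array and on the second Fr3 array, held for 8 of 9 members and for 26.2% of all genes. That combination was picked from the members' own directions, so the share is no test of it, and members are not replicates of one another. In 7 of 9 members, all but H2-DMb1 and H2-DMb2, the largest replicate gap exceeded the range of the 3 fraction means, as it did in 65.5% of all genes. The class II genes differed in the same direction between replicate sorts of the same gate in Fr2 and, H2-Ob apart, in Fr3. In Fr3 the gap of H2-DMb1, −0.15, was smaller than the all-gene median of −0.30. What differed between those sorts was not tested.

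**Figure D3:**
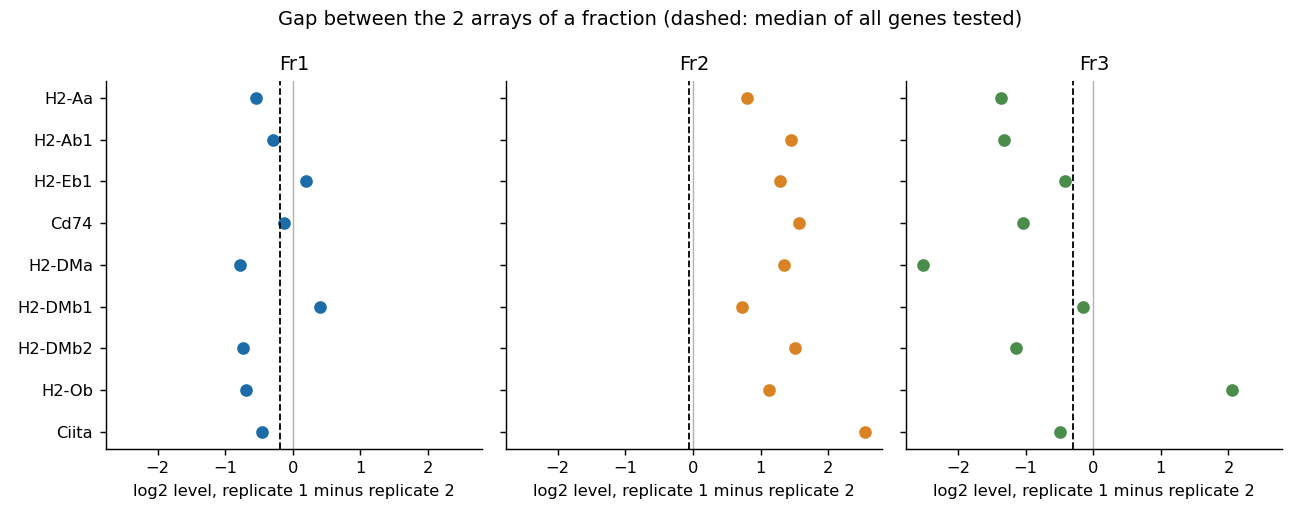
Log2 level on replicate 1 minus that on replicate 2 (horizontal axis) of the 9 tested class II genes in Fr1, Fr2 and Fr3, with the median gap of all genes as a dashed line. All 9 points of Fr2 lie right of 0 (0.73 to 2.55), and 8 of the 9 points of Fr3 lie left of it.

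In Fr2 and in Fr3 the surface and invariant chain genes moved together between replicates. For that reason, in a scaling chosen after the values were seen, the other members were set against a mean level of the same array. It was the mean of H2-Aa, H2-Ab1, H2-Eb1 and Cd74. That mean was 5.45 and 5.64 in Fr1, 6.05 and 4.77 in Fr2 and 4.36 and 5.39 in Fr3. On this scale H2-DMb2 stood at −2.71 and −2.16 in Fr1, −1.18 and −1.41 in Fr2 and −0.22 and −0.11 in Fr3. The 3 fractions were then in order with no overlap, Fr1 below Fr2 below Fr3. On the same scale 3.43% of all genes had that order, a share that leaves out genes separated in any other order. With all genes so scaled, limma gave −2.27 ± 0.90 for H2-DMb2 in Fr1 against Fr3, with an adjusted p of 0.524; 8.25% of all genes, H2-DMb2 among them, were at an unadjusted p under 0.05. The median of all genes on that scale was −0.72, since the scaling itself shifts every gene. H2-DMa, H2-DMb1 and Ciita overlapped between Fr1 and Fr3 on this scale, as did H2-Ob. The reference genes themselves differed from one another. Each set against the mean of the other 3, H2-Ab1 and Cd74 were in order without overlap, Fr2 below Fr1 below Fr3. H2-Eb1, set so, was higher in Fr2 than in Fr3 by 0.79 without overlap. Values set so cancel across the reference genes on every array, so opposite directions among them are built in. No share of all genes was worked out for these orders. H2-DMb2 minus H2-DMb1, each probe on the same array, was −1.77 and −0.63 in Fr1, −0.39 and −1.17 in Fr2 and 0.16 and 1.15 in Fr3, so that the Fr3 arrays were above all others.

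**Figure D4:**
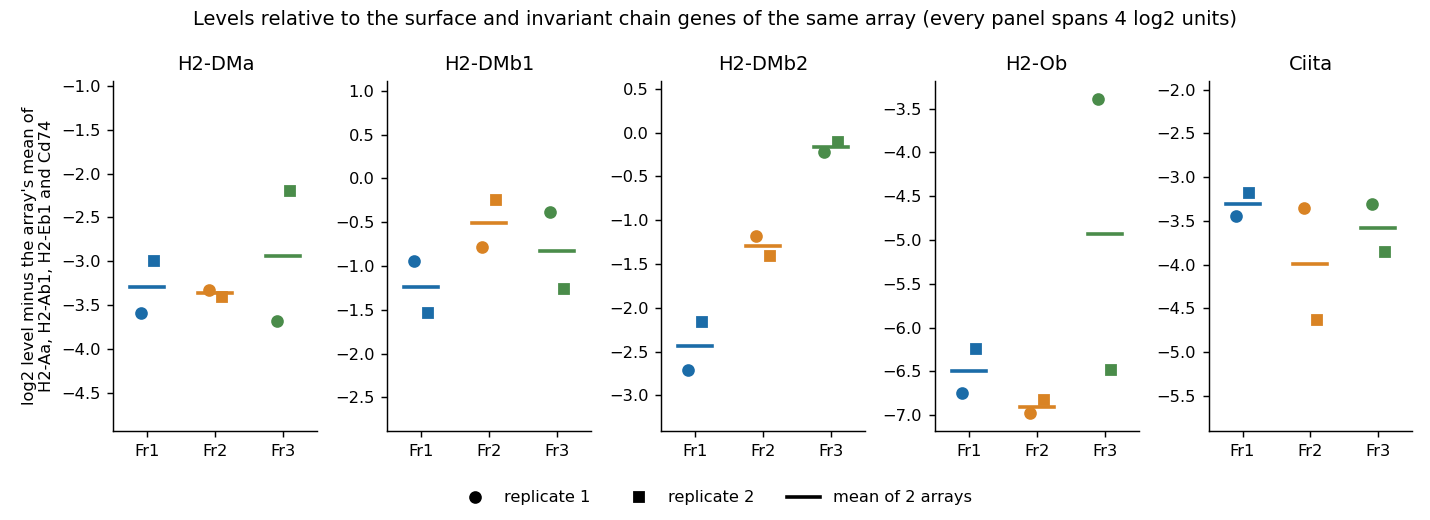
Log2 level minus the same array's mean of H2-Aa, H2-Ab1, H2-Eb1 and Cd74 (vertical axis) for 5 class II genes in Fr1, Fr2 and Fr3, with 1 point per array and a line at the mean. H2-DMb2 is the only 1 of the 5 whose fractions stand in order without overlap, with means of −2.44 in Fr1, −1.29 in Fr2 and −0.17 in Fr3.

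The genes whose pattern over the 6 arrays was most like that mean were sought among 13562 genes, by the root mean square difference of the mean-centred levels. The closest 5 lay at 0.120 to 0.193 and included Kpna1 (0.182), an importin alpha gene, and the predicted gene Gm6116 (0.193), with 3 known only by a transcript identifier. H2-Ab1 lay at 0.289 and Cd74 at 0.293, each set against the mean of the other 3 genes that made up that mean. Smaller distances were found for 65 and 69 genes that are not members, with other class II and pathway genes not left out. Those genes were set against the whole mean, so these counts do not compare like with like. The farthest members were H2-DMb2 at 0.943 and H2-Ob at 1.24.

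Other genes of the pathway were followed in 7 lists, of which 38 of 40 genes were tested. In limma 0 passed an adjusted p of 0.05 in any comparison. At an unadjusted p under 0.05, 3 were higher and 3 lower in Fr1 than in Fr3, 1 higher and 2 lower in Fr1 than in Fr2, and 4 higher and 0 lower in Fr2 than in Fr3, where 8.12%, 9.79% and 8.92% of all genes were below that p. Genes that bind the class II promoter included 6 tested, and Creb1, a factor of the X2 element, was the one below that p, at −1.11 and 0.22 in Fr1, 0.30 and 0.26 in Fr2 and −1.69 and −0.98 in Fr3. Its difference was 1.61 in Fr2 against Fr3 (adjusted p = 0.550), and the other 2 of its 3 kept probes went the opposite way, so Creb1 had no settled direction. Of the NF-Y subunits, Nfyb differed by −1.24 and Nfya by 0.11 in the same comparison, with 2 of 4 kept probes of Nfyb and 2 of 3 of Nfya going the opposite way. Nfyc was not well above background on either Fr1 array, and its Fr2 mean stood 3.24-fold above that bound. The difference did not pass the test (adjusted p = 0.595, limma). Its 95% confidence interval for Fr1 against Fr2 ran from 0.0499-fold to 1.47-fold and so included no difference. Rfx5 was above background on 1 array of each fraction and was not tested.

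Interferon-gamma induces Ciita through its receptor and JAK kinases. Of that axis, Jak1, Ifngr1, Jak2 and Irf1 had the smallest p, and 0 of these 4 reached an unadjusted p under 0.05 in any comparison. Jak1 gave the smallest, at −1.13 in Fr1 against Fr2 (adjusted p = 0.571). Of the lineage regulators of Ciita, Irf8, a factor of dendritic cell and monocyte development, read 1.33 and 0.57 in Fr1, −0.23 and −1.26 in Fr2 and −0.86 and −0.70 in Fr3. Both Fr1 arrays were above all others, with differences of 1.73 against Fr3 (adjusted p = 0.535) and 1.69 against Fr2 (adjusted p = 0.468). Zbtb46, a factor of conventional dendritic cells that is also in the marker list of those cells, read 2.31 and 1.52 in Fr1, 1.86 and 2.11 in Fr2 and 1.32 and −3.72 in Fr3, the last on a probe that is 46.7% T. Spi1 differed by −1.29 and Prdm1, a repressor of Ciita, by −1.33 in Fr1 against Fr2, neither at an unadjusted p under 0.05.

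Among the 10 endosomal enzymes, which cut the invariant chain and prepare peptides, cathepsin D (Ctsd) read 0.94 and 1.27 in Fr1, 2.75 and 3.17 in Fr2 and 3.19 and 3.30 in Fr3. Both Fr1 arrays were below all others, with differences of −2.14 against Fr3 (adjusted p = 0.333) and −1.85 against Fr2 (adjusted p = 0.391). Cathepsin B (Ctsb) was 4.57 and 3.96 in Fr1, 5.32 and 3.93 in Fr2 and 6.40 and 5.69 in Fr3. Cathepsin E (Ctse) was well above background in Fr2 alone, at −0.23 and 2.19. Its Fr2 mean stood 9.45-fold above the background bound in Fr1 and 11.9-fold above that in Fr3 (adjusted p of 0.309 and 0.125, limma). These folds make no allowance for the spread between arrays and are not limits of a confidence interval. Cathepsin H (Ctsh) differed by 1.27 in Fr2 against Fr3 (adjusted p = 0.574), with 1 of its 4 kept probes going the opposite way.

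Class II is removed from the surface by ubiquitin ligases of the MARCH family, a process that CD83 restrains. Marchf8 read 0.84 and 0.57 in Fr1, 2.63 and 1.14 in Fr2 and 2.81 and 2.47 in Fr3, with −1.94 in Fr1 against Fr3 (adjusted p = 0.507). Marchf1 and Cd83 differed by −0.08 and −0.60 there. Cd74 also forms a receptor for the cytokine MIF with CD44, CXCR2 or CXCR4. Cxcr4 was 6.72 and 6.51 in Fr1, 6.20 and 6.31 in Fr2 and 4.66 and 4.15 in Fr3, with both Fr3 arrays lowest. Its difference from Fr3 was 2.20 for Fr1 (adjusted p = 0.320) and 1.85 for Fr2 (adjusted p = 0.367). Cxcr2, best known from neutrophils, was 1.52 and 2.26 in Fr1, 2.93 and 3.89 in Fr2 and 0.55 and −0.37 in Fr3. Mif and Cd44 differed by −1.06 and −0.08 in Fr1 against Fr3.

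**Figure D5:**
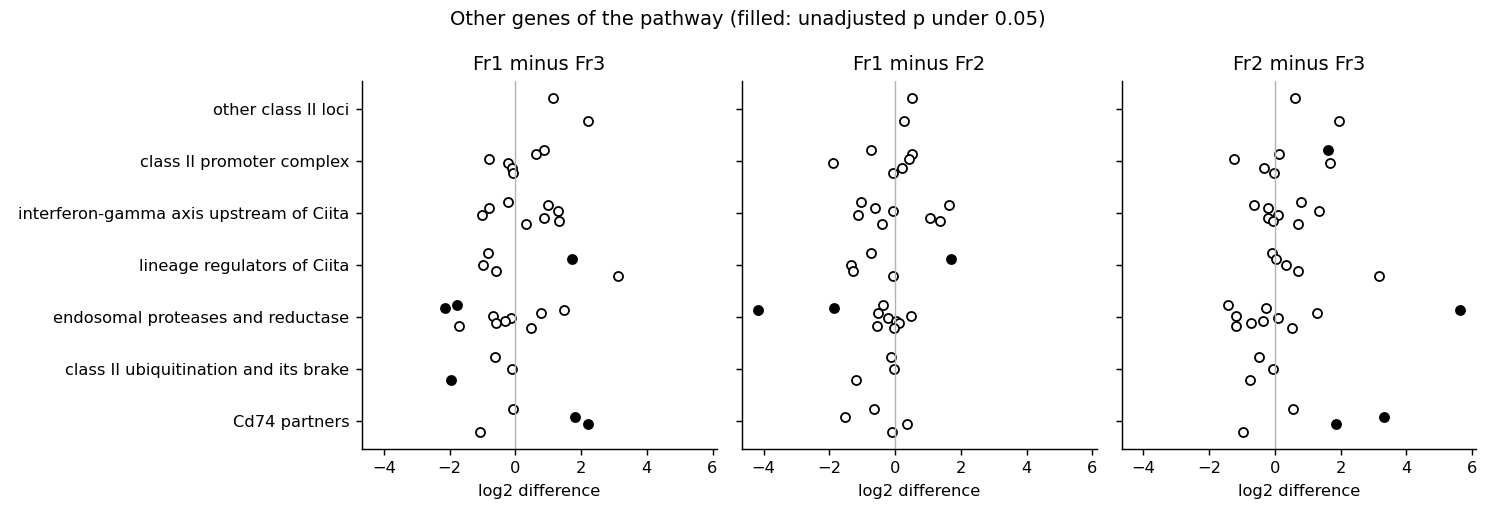
Log2 difference (horizontal axis) of 38 other pathway genes in 7 lists (vertical axis), for Fr1 minus Fr3, Fr1 minus Fr2 and Fr2 minus Fr3, with 1 point per gene, filled where the unadjusted p was under 0.05. The point farthest right in Fr2 minus Fr3 is Ctse, whose fitted value there (5.64) is not a bound since its probe was not above background in Fr3.

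Markers of cells that also express class II, or that the gates could hold, were read on the same arrays. Of the B cell markers, Cd79a and Blk were not well above background on any array. Ms4a1, another B cell marker, read 3.33 and 4.11 in Fr1, 2.25 and 4.38 in Fr2 and 3.77 and 4.47 in Fr3, so the B cell markers did not go together. Of the 10 conventional dendritic cell markers, 9 were tested, and the log2 of their summed level was 4.01 and 3.70 in Fr1, 3.81 and 3.54 in Fr2 and 2.50 and 1.88 in Fr3. The 10 tested of 11 macrophage markers summed to 5.51 and 5.52 in Fr1, 7.09 and 6.54 in Fr2 and 8.09 and 7.95 in Fr3. Neutrophil markers summed to 6.80 and 6.90 in Fr1, 8.91 and 9.05 in Fr2 and 5.59 and 4.48 in Fr3, and eosinophil markers to 4.07 and 4.24 in Fr1, 6.17 and 7.12 in Fr2 and 2.36 and 3.14 in Fr3. The 5 monocyte markers summed to 5.12 and 3.83 in Fr1, 6.39 and 6.71 in Fr2 and 2.06 and 2.83 in Fr3. These sums differed between the fractions in different orders, with dendritic cell markers lowest in Fr3, macrophage markers highest there and the other 3 lists highest in Fr2. The sort marker Itgax is in the dendritic cell sum, and Adgre1 and Mrc1 are in the macrophage sum. Their orders are thus partly set by the gates, and each sum is carried by its brightest probes. All 9 tested dendritic cell markers had a higher mean in Fr1 than in Fr3, but Flt3 and Dpp4 by only 0.02 and 0.08. Xcr1 was highest in Fr2, at 0.83 and 0.53. Of the 10 tested macrophage markers, 8 had a lower mean in Fr2 than in Fr3. The other 2, Adgre1 and Fcgr1, had a higher one. All 10 had a lower mean in Fr1 than in Fr3, but C1qb by only 0.38. The 5 plasmacytoid dendritic cell markers summed to 7.20 and 7.51 in Fr1, 6.61 and 6.77 in Fr2 and 7.03 and 7.37 in Fr3, a sum that is nearly all Siglech. Of that list, Ccr9 and Spib were well above background in Fr1 alone. Their Fr1 means stood 14.1-fold and 17.6-fold above the background bound in Fr3. The folds above the bound in Fr2 were 18.0 and 22.5 (adjusted p of 0.144 to 0.239, limma). These folds make no allowance for the spread between arrays and are not limits of a confidence interval. Of the 3 Langerhans cell markers, Cd207, which encodes langerin, read −0.16 and 0.47 in Fr1, −2.45 and −2.37 in Fr2 and −4.18 and −2.14 in Fr3 (adjusted p = 0.2997 in Fr1 against Fr3 and 0.406 in Fr1 against Fr2). Both Fr1 arrays were above all others for these 3 genes. In limma 0 of these 3 passed an adjusted p of 0.05. Against Fr3, the other tested markers of both lists did not go with them. Tcf4 was lower in Fr1 (1.33 and 1.46) than in Fr3 (1.90 and 1.76), and Siglech, Bst2 and Epcam overlapped. Against Fr2, Siglech, Bst2 and Tcf4 were higher in Fr1 without overlap, and Epcam overlapped. Cdh1, of the Langerhans cell list, was not tested. The part of any of these cells in the class II levels was not tested.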

How the data were processed

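Per the file headers, the authors' spot intensity values came from Feature Extraction 11.5.1.1, with background subtraction and removal of spatial and multiplicative trends. Per the labels' protocols, RNA was amplified and labelled with Cy3. The authors' deposited value table, of log2 values, served as an alternative. Here, processed intensities were put on a log2 scale and the 75th percentile of non-control spots was subtracted array by array. Probes well above background in both arrays of some fraction were kept (27867), and the brightest kept probe stood for a gene. Names were updated through RefSeq (32989 probes by accession, 10228 by symbol, 519 by synonym, 12869 unchanged). limma 3.58.1 in R 4.3.3 fitted 3 group means over all 6 arrays, with Benjamini-Hochberg adjustment over 20817 genes and two-sided p. The fitting code was also run on simulated data, with independent noise set below the spread typical of these arrays. That run checks the code and not how the fit behaves on these arrays. Files were read with Python 3.11.15. "Called" is an adjusted p under 0.05. Alternatives changed the background correction, normalization, filter, probe choice, T content, arrays and block. Named genes were all members, up to 4 genes with the smallest p in each pathway list, the 3 sort markers and the 5 nearest in pattern. The members and lists were chosen with earlier results of these data known. With 2 arrays a group, precision is limited by their number.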

Additional observations from a re-analysis of the deposited data

How the results depend on the processing

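No class II gene was called under any of the 16 to 18 alternatives run for each of its comparisons, and the smallest adjusted p was 0.241, for H2-DMb2 in Fr1 against Fr3, where its sign held in 18 of 18. The count of all genes called was 1 in Fr1 against Fr3, 0 in Fr1 against Fr2 and 1 in Fr2 against Fr3. Leaving out 1 array at a time gave 0 to 1476, 0 to 13 and 0 to 987, with the highest counts of Fr3 comparisons without the first Fr3 array; the lone array left is assumed to vary like the other fractions. With the replicate number as a block (replicate block) the counts were 0, 0 and 0, and no member was called. The labels do not say that the numbers pair the arrays, and the deviations of same-numbered arrays correlated at 0.12 (Fr1 and Fr2), 0.43 (Fr1 and Fr3) and 0.05 (Fr2 and Fr3). Without probes over 30% T the counts were 12, 3 and 56, and with normexp 3, 0 and 13. Without a filter, and with probes fitted one by one, Fr1 against Fr3 gave 0. Probes well above background on all arrays gave 9 in Fr2 against Fr3. Fits on only the arrays compared gave 0, 13 and 0, and scaling to the class II mean, chosen after seeing the data, gave 17, 2 and 1. With the slide as a random block limma gave a correlation of 0 and no difference changed, since each fraction lay on 1 slide. Leaving out 1 array at a time turned the sign of 16 of the 27 member differences. In Fr1 against Fr3 the ranges were −0.27 to 1.04 for H2-Ab1, −0.15 to 0.89 for Cd74, −0.94 to 1.58 for H2-DMa and −1.91 to 0.15 for H2-Ob, with both ends set by leaving out a Fr3 array. In Fr1 against Fr2 they were −0.38 to 0.42 for H2-Aa, −0.41 to 1.04 for H2-Ab1, −0.75 to 0.53 for H2-Eb1, −0.46 to 1.102 for Cd74, −0.47 to 0.88 for H2-DMa, −0.012 to 1.11 for H2-Ob and −0.45 to 2.09 for Ciita, with both ends set by a Fr2 array. In Fr2 against Fr3 they were −0.65 to 0.80 for H2-Ab1, −0.73 to 0.83 for Cd74, −1.34 to 0.16 for H2-DMb2 and −1.14 to 1.40 for Ciita, set by the Fr2 arrays, and −1.14 to 1.37 for H2-DMa, set by the Fr3 arrays. H2-Aa in Fr1 against Fr2 gave −0.12 with normexp and −0.031 with levels centred by T content, which also gave −0.20 for H2-Ab1 in Fr2 against Fr3. Quantile normalization gave 0.24 for H2-Eb1 in Fr1 against Fr2. Scaled to the class II mean, H2-DMa gave −0.36 and H2-DMb1 −0.41 in Fr1 against Fr3, and H2-DMa −0.42 and Ciita −0.41 in Fr2 against Fr3. The causes were not tested. The precision is limited by 2 arrays a fraction.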
